A study of Homo sapiens with 4 samples.

Results

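The SR proteins, the hnRNPs and the kinases that phosphorylate SR proteins were followed in MDA-MB-231 cells exposed to the compound Neoribocic. The genes were chosen by symbol: every protein-coding row named SRSF, TRA2A, TRA2B, HNRNP, CLK1 to CLK4 or SRPK1 to SRPK3. The rule found 47 of the 20263 rows in the table: 12 SR protein genes, 2 TRA2 genes, 26 HNRNP genes, 4 CLK genes and 3 SRPK genes. The rule itself uses no expression value. Of the 47, 42 had enough counts to be tested, and SRSF12, HNRNPCL1, HNRNPCL2, HNRNPCL3 and HNRNPCL4 did not.

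SR proteins bind enhancer sequences in exons through RNA recognition motifs and recruit the splicing machinery through a tail rich in arginine and serine. hnRNPs coat nascent transcripts and often act against SR proteins, by masking splice sites or looping out exons. SRPK kinases, mostly cytoplasmic, phosphorylate the tail and so allow nuclear import, and CLK kinases, in the nucleus, phosphorylate it further and release SR proteins from nuclear speckles. Many SR protein and hnRNP genes also control their own messenger RNA by splicing in an exon that sends the transcript to nonsense-mediated decay.

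MDA-MB-231 is a long-established human breast cancer line, triple-negative and mesenchymal in character. Cells were kept for 24 h with Neoribocic or with DMSO, the solvent, and each group had 2 libraries, made from total RNA with an mRNA kit. The treatment protocol calls the compound Rib_CA, and both names were taken to mean 1 treatment, of which the labels give no dose. The groups share the parental line, and no genotype differed. Whether replicate libraries stem from different cultures is not recorded, so p-values may reflect technical spread alone.

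Totals were 41572094 and 43014212 counts in Neoribocic replicates 1 and 2, against 34774542 and 37754168 in DMSO replicates 1 and 2. The 7 markers of the line were all detected, at no less than 148 CPM in any library (CPM are counts scaled to library size), with VIM at 2804 to 4238 CPM. Their summed level was 7728 to 8011 CPM with Neoribocic and 9512 to 11561 CPM with DMSO. The 6 markers of other breast lines summed to 110 to 127 CPM with Neoribocic and 96.9 to 98.9 CPM with DMSO. Most of that sum was ERBB2, at 109 and 89.8 CPM with Neoribocic, against 76.0 and 65.6 CPM with DMSO. EPCAM ranged over 9.31 to 9.93 CPM and GATA3 over 8.22 to 21.8 CPM. ESR1 and PGR were at no more than 0.649 and 1.77 CPM, and CDH1 had no count in replicate 2 of either group. The 3 markers of other cell types (PTPRC, PECAM1 and COL1A1) summed to 6.33 to 7.03 CPM with Neoribocic and 9.14 to 9.18 CPM with DMSO. Mitochondrial genes took 5.76% and 7.24% of the counts with Neoribocic, against 8.68% and 21.7% with DMSO. Leaving those genes out changed no call among the 42. That only removes their counts, so whether the libraries differ in other ways along with this share was not tested.

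Most of these splicing regulators were lower with Neoribocic. The libraries are bulk RNA, so fewer cells that hold a transcript and less of it per cell cannot be told apart. Of the 42 tested, 24 fell and 3 rose (edgeR quasi-likelihood test, Benjamini-Hochberg adjusted p under 0.05 over 13879 genes). Without Neoribocic replicate 1 the count lower was 11, and with library totals as the only scaling it was 15. The 3 that rose were SRSF9, HNRNPA0 and CLK3, each at least doubled, and 11 of the 24 that fell were at least halved. Calls were frequent in this comparison: over all genes tested, 40.4% were called (21.3% lower and 19.1% higher), 14.8% were lower and at least halved, and 11.9% were higher and at least doubled. The share called lower among the 42 was 57.1% and the share called higher 7.14%. Their median log2 fold change was -0.69, where the median of all genes tested was 0.01. In 32 of the 42 (76.2%), both Neoribocic libraries lay below both DMSO libraries, against 37.3% of all genes, and in 5 both lay above, against 37.8% of all genes.

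**Figure D1:**
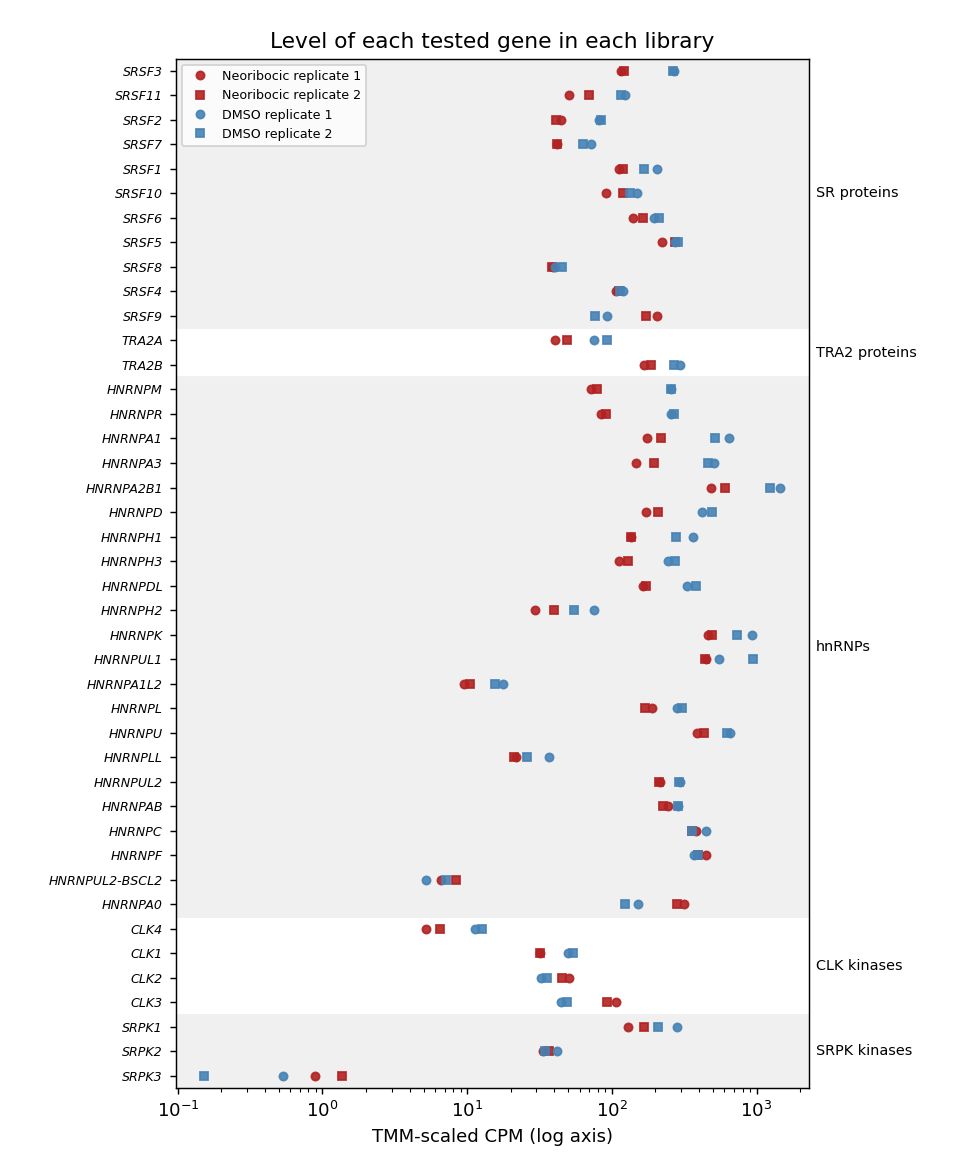
Level of the 42 tested genes in each library, as TMM-scaled CPM on a log axis. Red marks are Neoribocic libraries and blue marks DMSO libraries, with circles for replicate 1 and squares for replicate 2. In 32 genes both red marks lie left of both blue marks, and HNRNPA2B1 spans the widest range of levels at the high end, with 487 and 607 CPM for Neoribocic and 1463 and 1230 CPM for DMSO.

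A trend with base composition ran through the whole comparison and touches these genes. Across 13862 genes, the log2 fold change had a Spearman correlation of 0.45 with the GC content of the transcript and -0.40 with its length. The splicing regulators are AT-rich, with a median GC content of 44.2%, against 49.4% for all genes tested. After a correction for length and GC content, 18 of the 42 were lower and 3 higher, where 19.4% and 16.5% of all genes were, and the median log2 fold change of the 42 was -0.45. Of the 27 calls, 19 were kept, and 8 were lost (SRSF7, SRSF11, TRA2B, HNRNPK, HNRNPU, CLK1, CLK4 and SRPK1). The correction also added HNRNPUL1 and HNRNPAB. Whether the trend is a property of the response or of the libraries was not tested. Corrected values therefore stand beside the others below for many genes, but not for every gene named.

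**Figure D2:**
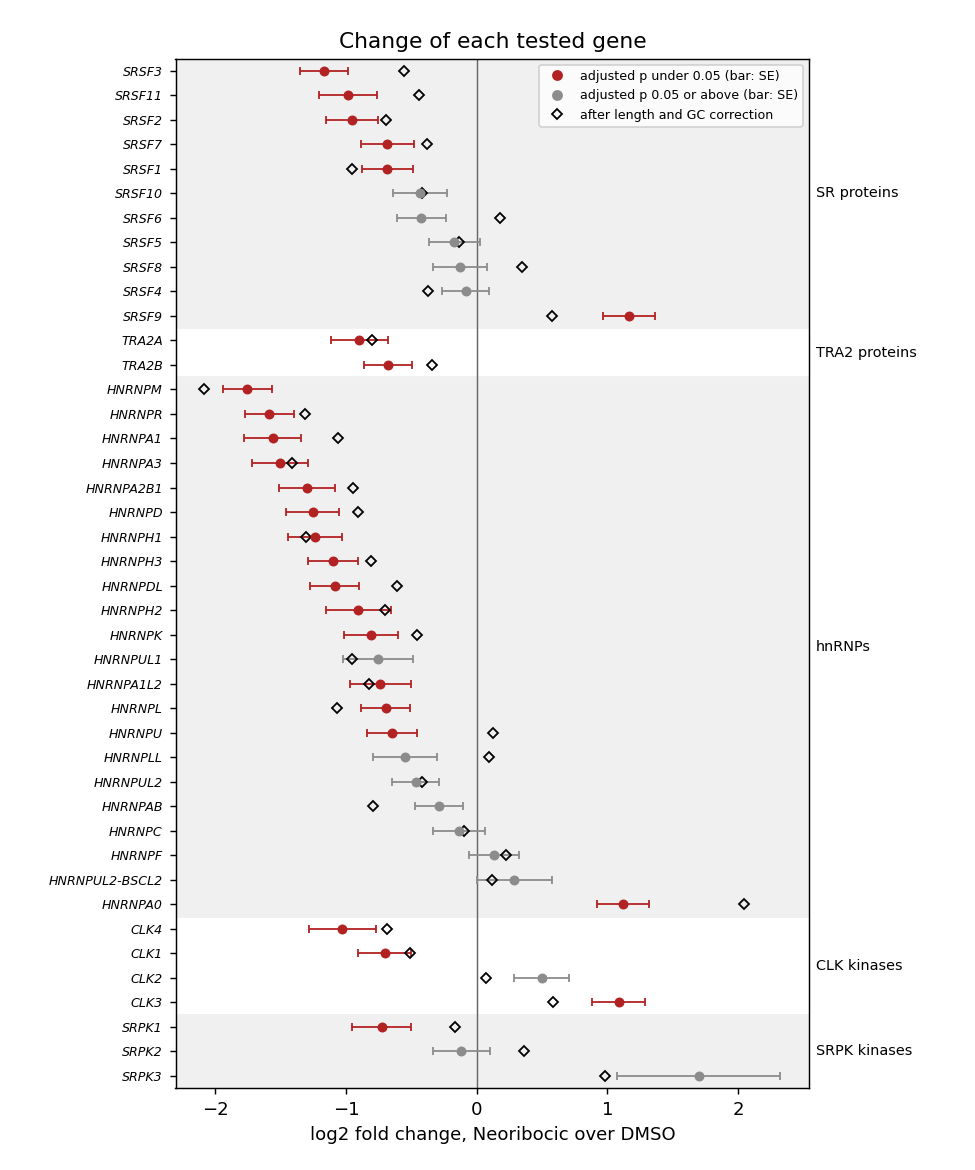
Log2 fold change of the 42 tested genes, Neoribocic over DMSO. Filled points with bars are the estimates with their standard errors, red where the adjusted p was under 0.05 and grey otherwise, and open diamonds are the estimates after the correction for length and GC content. HNRNPM, at -1.75, is the farthest to the left, and SRSF9, CLK3 and HNRNPA0 are the 3 red points right of 0.

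Promoter sequences are shown for 4 genes, the SR protein and the hnRNP gene with the smallest p in each direction, because those carry the contrast within their families. They come from RefSeq (GRCh38.p14), run 5′ to 3′ along the gene's strand and cover 300 bases around the transcription start. RefSeq's table held promoters for 43 of the 47 genes, and those of HNRNPA1, SRSF2, TRA2A and HNRNPCL3 are not shown. Capitals mark matches, on either strand, to the motifs searched: the NRF1 consensus, the CCAAT box, the SP1 box GGGCGG, the TATA box in its form TATAAA, and the E2F site in its forms TTTCCCGC or TTTGGCGC. No marked matches overlap in these 4. HNRNPM lies on the plus strand (chr19:8444725-8445024) and HNRNPA0 on the minus strand (chr5:137754314-137754613). SRSF3 lies on the plus strand (chr6:36594112-36594411) and SRSF9 on the minus strand (chr12:120469699-120469998).
HNRNPM, lower: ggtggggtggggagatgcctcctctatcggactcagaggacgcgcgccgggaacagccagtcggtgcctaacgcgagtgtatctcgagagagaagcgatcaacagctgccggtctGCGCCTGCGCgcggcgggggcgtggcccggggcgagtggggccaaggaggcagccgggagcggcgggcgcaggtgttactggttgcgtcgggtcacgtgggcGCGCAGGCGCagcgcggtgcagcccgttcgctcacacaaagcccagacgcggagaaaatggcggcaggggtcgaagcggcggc
SRSF3, lower: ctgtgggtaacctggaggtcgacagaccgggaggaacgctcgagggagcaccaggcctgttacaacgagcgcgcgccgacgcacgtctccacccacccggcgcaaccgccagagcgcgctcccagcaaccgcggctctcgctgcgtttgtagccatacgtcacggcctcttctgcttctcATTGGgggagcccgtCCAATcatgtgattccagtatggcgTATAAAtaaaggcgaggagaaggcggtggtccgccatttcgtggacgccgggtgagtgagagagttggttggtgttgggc
HNRNPA0, higher: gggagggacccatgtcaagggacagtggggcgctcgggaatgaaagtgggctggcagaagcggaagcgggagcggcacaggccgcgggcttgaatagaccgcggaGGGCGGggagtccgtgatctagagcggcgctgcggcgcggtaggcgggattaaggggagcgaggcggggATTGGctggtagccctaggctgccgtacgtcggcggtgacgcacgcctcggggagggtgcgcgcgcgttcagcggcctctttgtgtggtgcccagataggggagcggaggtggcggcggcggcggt
SRSF9, higher: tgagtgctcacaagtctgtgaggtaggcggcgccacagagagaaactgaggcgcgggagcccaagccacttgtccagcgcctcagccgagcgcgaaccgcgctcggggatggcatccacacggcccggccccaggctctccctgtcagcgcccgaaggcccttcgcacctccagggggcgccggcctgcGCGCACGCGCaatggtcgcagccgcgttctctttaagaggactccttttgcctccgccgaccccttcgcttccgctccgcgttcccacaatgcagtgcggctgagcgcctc
The promoter of HNRNPM holds 2 NRF1 matches, beginning at -135 and -33 relative to the start, and that of SRSF9 holds 1, at -61. SRSF3 has CCAAT boxes at -70 and -55 and a TATA box at -30, while HNRNPA0 has a CCAAT box at -76 and an SP1 match at -145. An NRF1 match stood in 6 of the 43 promoters (14.0%: SRSF1, SRSF9, SRSF10, HNRNPM, CLK1 and SRPK1) and in 5.78% of 35116 promoters in the table. The other shares, among the 43 and then among all promoters, were 65.1% and 45.0% for SP1, 44.2% and 34.6% for the CCAAT box, 14.0% and 11.5% for the TATA box, and 6.98% and 2.27% for E2F. These shares count 1 promoter per gene among the 43 but every listed start among the 35116, where a gene can have several. The 2 sets are thus not like for like. NRF1 matches occur in genes that rose (SRSF9) and in genes that fell (HNRNPM), and a match in these letters is not evidence of binding.

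Among the SR proteins, 5 of 11 tested genes fell and 1 rose, where 21.3% and 19.1% of all genes did. The family median was -0.44, and it ranged over -0.64 to -0.27 under the alternatives of the processing. SRSF3, the smallest SR protein and an adaptor for messenger RNA export, had 115 and 122 CPM with Neoribocic, against 269 and 264 CPM with DMSO. Both treated libraries were far below both controls, a log2 fold change of -1.17 ± 0.18 (SE; edgeR adjusted p = 0.00225), or -0.56 after the correction (adjusted p = 0.0332). SRSF2, a component of nuclear speckles also known as SC35, had 44.2 and 41.1 CPM with Neoribocic, against 81.0 and 84.2 CPM with DMSO. The groups were clearly apart, with a log2 fold change of -0.95 ± 0.20 (adjusted p = 0.00680) and -0.70 corrected. On the opposite strand, MFSD11 covers 36.7% of the exon bases of SRSF2, and its own log2 fold change was 0.02 (adjusted p = 0.970); the counting is not stated to use strand, so reads of the 2 genes cannot be told apart.

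SRSF9, the closest relative of SRSF1, moved the other way. It had 204 and 173 CPM with Neoribocic, against 91.8 and 76.6 CPM with DMSO. Its log2 fold change was 1.16 ± 0.20 (adjusted p = 0.00340), a 2.24-fold higher level, and 0.58 after the correction (adjusted p = 0.0411). The call held with each library left out in turn, at adjusted p of 0.00997 to 0.0296. GATC, on the opposite strand, covers 46.2% of the exon bases of SRSF9. With no strand setting stated, reads of GATC and SRSF9 cannot be told apart there. GATC had 100 and 102 CPM with Neoribocic, against 82.5 and 85 CPM with DMSO, and did not pass the test (log2 fold change 0.27, adjusted p = 0.263).

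SRSF1, the first-described SR protein and a known proto-oncogene, had 113 and 119 CPM with Neoribocic, against 206 and 166 CPM with DMSO. The 2 controls differed more from each other than the treated libraries did, and both lay above them. The log2 fold change was -0.68 ± 0.20 (adjusted p = 0.0248) and -0.95 corrected (adjusted p = 0.0126). Of its exon bases, 56.6% are shared with AC015813.2 on the same strand, a gene with no row in the table, so its count may have been split in the counting. The call was lost without Neoribocic replicate 1 (adjusted p = 0.137), Neoribocic replicate 2 (0.0776) or DMSO replicate 1 (0.117).

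SRSF11, an SR protein of nuclear speckles, had 50.8 and 69.8 CPM with Neoribocic, against 122 and 116 CPM with DMSO. Its 2 treated libraries were unequal but both far below the controls. The log2 fold change was -0.99 ± 0.22 (adjusted p = 0.00894), -0.44 after the correction (adjusted p = 0.0569), and the call was lost without Neoribocic replicate 1 (adjusted p = 0.0745). SRSF7, which carries a zinc knuckle beside its RNA recognition motif, had 41.8 CPM in both Neoribocic libraries, against 71.3 and 62.9 CPM with DMSO. Both treated values were below both controls. Its log2 fold change was -0.68 ± 0.20 (adjusted p = 0.0273), or -0.38 after the correction (adjusted p = 0.0791). The SRSF7 call was lost with any 1 library left out: Neoribocic replicate 1 (adjusted p = 0.121), Neoribocic replicate 2 (0.0926), DMSO replicate 1 (0.109) or DMSO replicate 2 (0.0562).

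The remaining SR proteins did not pass the test. SRSF6 had a log2 fold change of -0.42 (adjusted p = 0.104) and SRSF10, a splicing repressor in its dephosphorylated form, -0.44 (adjusted p = 0.123). SRSF5 stood at -0.17, SRSF8 at -0.13 and SRSF4 at -0.09. Scaling by library totals turned these last 3 to 0.0085, 0.05 and 0.08, and the correction turned SRSF6 to 0.18 and SRSF8 to 0.35. SRSF12 had counts of 0 and 2 with Neoribocic, against 0 and 0 with DMSO. Set per kilobase of transcript, SRSF9 made up 31.5% and 25.5% of the summed SR protein level with Neoribocic, against 11.6% and 10.4% with DMSO, and SRSF1 13.8% and 13.9% with Neoribocic, against 20.7% and 17.9% with DMSO. The largest SR component per kilobase was thus SRSF9 with Neoribocic and SRSF1 with DMSO.

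Both TRA2 genes fell, where 21.3% of all genes did. TRA2A and TRA2B encode homologues of the fly sex determination factor Transformer 2, SR-like proteins that bind GA-rich exon enhancers. TRA2A had 40.5 and 49.0 CPM with Neoribocic, against 75.3 and 91.8 CPM with DMSO, a log2 fold change of -0.90 ± 0.22 (edgeR adjusted p = 0.0127) and -0.80 corrected (adjusted p = 0.0227). TRA2B had 168 and 187 CPM with Neoribocic, against 297 and 271 CPM with DMSO, a log2 fold change of -0.68 ± 0.19 (adjusted p = 0.0208) and -0.35 corrected (adjusted p = 0.0762). In neither gene did the groups overlap. Over all genes, 37.3% likewise had both Neoribocic libraries below both DMSO libraries. TRA2A lost its call without Neoribocic replicate 1 (adjusted p = 0.0973) or DMSO replicate 2 (0.0705). TRA2B lost its call without Neoribocic replicate 1 (0.137), Neoribocic replicate 2 (0.0533) or DMSO replicate 1 (0.0758).

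The hnRNPs, the largest family tested, had the most calls. Of 22 genes, 14 fell (63.6%) and 1 rose (4.55%), where 21.3% and 19.1% of all genes did. The median was -0.78, and it stayed between -0.88 and -0.61 under all alternatives. The correction for length and GC content left this family's count at 14 lower and 1 higher, with a median of -0.80. The genes called were not all the same, as HNRNPK and HNRNPU lost their calls and HNRNPUL1 and HNRNPAB gained them. Over all genes the correction gave 19.4% lower and 16.5% higher. Summed over the 26 genes, hnRNP transcripts made up 4702 and 4922 CPM with Neoribocic, against 8605 and 8328 CPM with DMSO. The sum was thus lower in both treated libraries by more than the replicates of a group differed.

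HNRNPM, which binds GU-rich sequences and has been linked to splicing in mesenchymal breast cancer cells, had the smallest p of all 42 genes. It had 72.3 and 79.6 CPM with Neoribocic, against 257 and 255 CPM with DMSO. Each group was tight, and the log2 fold change was -1.75 ± 0.19 (edgeR adjusted p = 7.55e-04), which makes the level 3.37-fold higher in DMSO. The correction moved it to -2.08 (adjusted p = 0.00263). HNRNPR, a relative of SYNCRIP that binds messenger RNA in the nucleus and cytoplasm, had 83.8 and 91.0 CPM with Neoribocic, against 258 and 268 CPM with DMSO. Its log2 fold change was -1.59 ± 0.19 (adjusted p = 9.25e-04) and -1.32 corrected. HNRNPM and HNRNPR were called in every setting tried.

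The A/B hnRNPs, core particle proteins known for silencing exons, moved in opposite directions. HNRNPA1 had 174 and 219 CPM with Neoribocic, against 643 and 516 CPM with DMSO, a log2 fold change of -1.56 ± 0.22 (adjusted p = 0.00154). HNRNPA3 had 146 and 196 CPM with Neoribocic, against 508 and 461 CPM with DMSO, a log2 fold change of -1.50 ± 0.21 (adjusted p = 0.00167). HNRNPA2B1, the most abundant of the 42 per kilobase in DMSO, had 487 and 607 CPM with Neoribocic, against 1463 and 1230 CPM with DMSO. In all 3, each treated library was far below either control, and the HNRNPA2B1 log2 fold change was -1.30 ± 0.22 (adjusted p = 0.00290). After the correction they stood at -1.06 (HNRNPA1), -1.41 (HNRNPA3) and -0.95 (HNRNPA2B1), all 3 called. The annotation lists 74 pseudogenes of HNRNPA1 and 16 of HNRNPA3, none with a row, so how reads shared with these copies were counted is unknown.

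HNRNPA0, a single-exon relative of HNRNPA1 known to bind AU-rich elements, was the 1 hnRNP that rose. It had 314 and 281 CPM with Neoribocic, against 151 and 122 CPM with DMSO. That is 2.17-fold higher, a log2 fold change of 1.12 ± 0.20 (adjusted p = 0.00377). Its transcript is the longest of the 42, at 8726 bases, and the correction raised the log2 fold change to 2.05 (adjusted p = 0.00321). HNRNPA1L2, an HNRNPA1-like gene on another chromosome, had 9.44 and 10.5 CPM with Neoribocic, against 17.6 and 15.6 CPM with DMSO. It fell by 0.74 on the log2 scale (SE 0.23, adjusted p = 0.0346), but its near-identity to HNRNPA1 makes its count uncertain. That call was lost with any 1 library left out: Neoribocic replicate 1 (adjusted p = 0.169), Neoribocic replicate 2 (0.0876), DMSO replicate 1 (0.111) or DMSO replicate 2 (0.0613). HNRNPAB, a further member of the A/B group, had 246 and 225 CPM with Neoribocic, against 288 CPM in both DMSO libraries. Its log2 fold change of -0.29 (adjusted p = 0.229) did not pass, but after the correction it was -0.79 and called (adjusted p = 0.00904).

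HNRNPD (AUF1), which binds AU-rich elements and promotes decay of their transcripts, had 173 and 207 CPM with Neoribocic, against 419 and 490 CPM with DMSO. Its relative HNRNPDL had 163 and 173 CPM with Neoribocic, against 331 and 381 CPM with DMSO. In both genes the groups were far apart. The log2 fold changes were -1.26 ± 0.20 for HNRNPD (adjusted p = 0.00254; -0.91 corrected) and -1.09 ± 0.19 for HNRNPDL (adjusted p = 0.00341; -0.61 corrected). HNRNPC, which binds uridine tracts and packages nascent RNA, had 381 and 357 CPM with Neoribocic, against 449 and 361 CPM with DMSO. The groups overlapped within their spread, with a log2 fold change of -0.13 (adjusted p = 0.615) that turned to 0.02 with library totals and 0.03 without DMSO replicate 1. Per kilobase, HNRNPC averaged 215 CPM with Neoribocic and 236 CPM with DMSO, and HNRNPA2B1 156 CPM with Neoribocic and 385 CPM with DMSO. On 1 transcript length per gene, HNRNPC was therefore the most abundant hnRNP per kilobase with Neoribocic, and HNRNPA2B1 with DMSO.

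The F/H hnRNPs bind runs of guanines and can activate or silence exons. HNRNPH1 had 135 CPM in both Neoribocic libraries, against 362 and 277 CPM with DMSO, a log2 fold change of -1.24 ± 0.20 (adjusted p = 0.00280) and -1.31 corrected. HNRNPH3 had 111 and 130 CPM with Neoribocic, against 246 and 271 CPM with DMSO, a log2 fold change of -1.10 ± 0.19 (adjusted p = 0.00346) and -0.81 corrected. HNRNPH2 had 29.6 and 39.5 CPM with Neoribocic, against 75.0 and 54.4 CPM with DMSO. The HNRNPH2 groups did not overlap, but each was wide, and the log2 fold change was -0.91 ± 0.25 (adjusted p = 0.0217) and -0.70 corrected. Its call was lost without Neoribocic replicate 1 (adjusted p = 0.145) or DMSO replicate 1 (0.12), and 16.3% of its exon bases are shared with the read-through gene RPL36A-HNRNPH2. That read-through gene had 46.8 and 21.4 CPM with Neoribocic, against 9.95 and 25.1 CPM with DMSO. Its log2 fold change was 0.96 (edgeR adjusted p = 0.249). How reads of the shared bases were assigned is not stated, so the counts of the 2 genes may be split. HNRNPF, the near relative of HNRNPH1, had 447 and 392 CPM with Neoribocic, against 370 and 395 CPM with DMSO. Those values overlap, and the log2 fold change of 0.13 did not pass (adjusted p = 0.598).

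HNRNPK, a poly(C)-binding protein with KH domains, had 464 and 492 CPM with Neoribocic, against 937 and 737 CPM with DMSO. HNRNPL, which binds CA repeats, had 190 and 171 CPM with Neoribocic, against 280 and 304 CPM with DMSO. HNRNPU, also known as scaffold attachment factor A, had 385 and 433 CPM with Neoribocic, against 658 and 624 CPM with DMSO. None of the 3 had overlapping groups, where both treated libraries lay below both controls in 37.3% of all genes. The 3 stood at log2 fold changes of -0.81 ± 0.21 (HNRNPK, adjusted p = 0.0155), -0.70 ± 0.19 (HNRNPL, adjusted p = 0.0183) and -0.65 ± 0.19 (HNRNPU, adjusted p = 0.0261). The correction separated them: HNRNPL moved to -1.07 (adjusted p = 0.00399), HNRNPK to -0.46 (0.0521), and HNRNPU turned to 0.13 (0.499). HNRNPK lost its call without Neoribocic replicate 1 (adjusted p = 0.102), Neoribocic replicate 2 (0.0546) or DMSO replicate 1 (0.0668). HNRNPL lost it without Neoribocic replicate 1 (0.0734), Neoribocic replicate 2 (0.0917) or DMSO replicate 2 (0.0725). HNRNPU lost it without Neoribocic replicate 1 (0.163), Neoribocic replicate 2 (0.0607), DMSO replicate 1 (0.0763) or DMSO replicate 2 (0.0622). COX20, on the opposite strand, covers 15.6% of the exon bases of HNRNPU and had a log2 fold change of 0.05 (adjusted p = 0.880).

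HNRNPUL1, a relative of HNRNPU, had 449 and 443 CPM with Neoribocic, against 554 and 952 CPM with DMSO. The 2 controls differed by far more than the treated libraries, and the log2 fold change of -0.76 ± 0.27 missed the threshold (adjusted p = 0.0532), but the correction gave -0.96 (adjusted p = 0.0236). HNRNPUL2 stood at -0.47 (adjusted p = 0.0663), HNRNPLL, known for regulating CD45 splicing in lymphocytes, at -0.55 (adjusted p = 0.106; 0.09 corrected) and the read-through HNRNPUL2-BSCL2 at 0.29 (adjusted p = 0.448). HNRNPUL2 and its read-through share 44.1% of the exon bases of HNRNPUL2, so their counts may be split. HNRNPCL1, HNRNPCL2, HNRNPCL3 and HNRNPCL4, copies of HNRNPC, had 0 counts in every library. A count of 0 was taken to allow up to 3 counts, set against library totals without TMM scaling. On that scale each gene was under 0.0722 and 0.0697 CPM with Neoribocic and under 0.0863 and 0.0795 CPM with DMSO, counting error only.

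The CLK kinases did not move together: CLK3 rose, CLK1 and CLK4 fell, and CLK2 did not pass. CLK3 had 106 and 92.7 CPM with Neoribocic, against 44.9 and 48.9 CPM with DMSO. Both treated libraries lay well above both controls, a 2.12-fold higher level. The log2 fold change was 1.09 ± 0.20 (edgeR adjusted p = 0.00438) and 0.59 corrected (adjusted p = 0.0192), and it was called with each library left out, at adjusted p of 0.0130 to 0.0358. CLK1, whose transcript is known to be stored with retained introns and spliced on stress, had 31.9 and 31.6 CPM with Neoribocic, against 49.7 and 53.9 CPM with DMSO. CLK4, its close relative, had 5.23 and 6.49 CPM with Neoribocic, against 11.3 and 12.7 CPM with DMSO. Neither overlapped, where both treated libraries lay below both controls in 37.3% of all genes. The log2 fold changes were -0.71 ± 0.21 for CLK1 (adjusted p = 0.0259) and -1.03 ± 0.26 for CLK4 (adjusted p = 0.0146).

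The correction left CLK1 at -0.51 (adjusted p = 0.0566) and CLK4 at -0.69 (adjusted p = 0.0535). CLK1 lost its call with any 1 library left out: Neoribocic replicate 1 (adjusted p = 0.114), Neoribocic replicate 2 (0.0896), DMSO replicate 1 (0.0594) or DMSO replicate 2 (0.0974). CLK4 lost its call without Neoribocic replicate 1 (0.111) or DMSO replicate 2 (0.0502). CLK2 had 50.7 and 45.2 CPM with Neoribocic, against 32.3 and 35.6 CPM with DMSO. Its groups did not overlap, but the log2 fold change of 0.50 ± 0.21 did not pass (adjusted p = 0.0896) and was 0.07 after the correction. Per kilobase, CLK3 made up 56.0% and 54.1% of the summed CLK level with Neoribocic, against 33.9% and 33.8% with DMSO, and CLK1 16.4% and 18% with Neoribocic, against 36.7% and 36.4% with DMSO. On 1 transcript length per gene, the leading CLK transcript was thus CLK3 with Neoribocic, while CLK1 and CLK3 were close to each other with DMSO.

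SRPK1, the founding member of its kinase family, had 129 and 168 CPM with Neoribocic, against 281 and 210 CPM with DMSO. The groups did not overlap, though each spread widely, and the log2 fold change was -0.73 ± 0.23 (edgeR adjusted p = 0.0332). After the correction it was -0.17 and not called (adjusted p = 0.424), and the call was also lost without Neoribocic replicate 1 (adjusted p = 0.211) or DMSO replicate 1 (0.161). SRPK2 had 33.3 and 36.9 CPM with Neoribocic, against 41.5 and 34.6 CPM with DMSO. Those values overlap, and its log2 fold change of -0.12 ± 0.22 (adjusted p = 0.692) turned to 0.36 with the correction. SRPK3, known as the muscle SRPK, had 0.895 and 1.37 CPM with Neoribocic, against 0.536 and 0.152 CPM with DMSO, on counts of 38 and 65 with Neoribocic and 19 and 5 with DMSO. Its log2 fold change of 1.70 ± 0.63 did not pass (adjusted p = 0.0590). Of its exon bases, 30.2% are shared with PLXNB3, which rose (log2 fold change 1.28, adjusted p = 0.00339), so the counts of SRPK3 may include reads of PLXNB3.

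Ratios between related genes within a library do not depend on how libraries are scaled. The pairs below were chosen after their values were seen and are a description. The log2 ratio of CLK3 to CLK1 counts was 1.74 and 1.55 with Neoribocic, against -0.15 and -0.14 with DMSO, and that of CLK3 to CLK4 was 4.35 and 3.84 with Neoribocic, against 2.0 and 1.95 with DMSO. The log2 ratio of SRSF9 to SRSF1 was 0.86 and 0.54 with Neoribocic, against -1.17 and -1.11 with DMSO. SRSF9 and CLK3 thus had more counts than SRSF1 and CLK1 in both Neoribocic libraries and in neither DMSO library. HNRNPA0 to HNRNPA1 was at 0.85 and 0.36 with Neoribocic, against -2.09 and -2.08 with DMSO, and HNRNPA0 to HNRNPA3 at 1.10 and 0.52 with Neoribocic, against -1.75 and -1.91 with DMSO. HNRNPF to HNRNPH1 was at 1.72 and 1.53 with Neoribocic, against 0.03 and 0.51 with DMSO. After the correction for length and GC content the differences of these log2 ratios, Neoribocic minus DMSO, were 1.10 for CLK3 over CLK1, 1.28 for CLK3 over CLK4, 1.53 for SRSF9 over SRSF1, 3.11 for HNRNPA0 over HNRNPA1, 3.46 for HNRNPA0 over HNRNPA3 and 1.53 for HNRNPF over HNRNPH1. All of them kept their direction. HNRNPAB over HNRNPD, by contrast, differed by 0.97 as counted and by 0.11 after the correction.

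**Figure D3:**
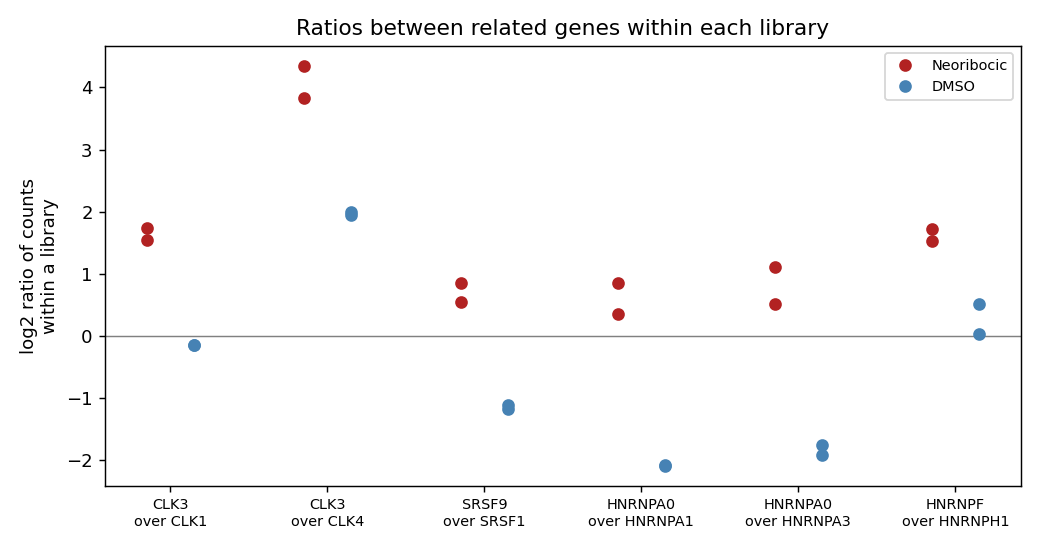
Log2 ratio of the counts of related genes within each library, with Neoribocic libraries in red at the left of each pair and DMSO libraries in blue at its right. The red points lie above the blue ones in all 6 pairs drawn, and for CLK3 over CLK1, SRSF9 over SRSF1 and both HNRNPA0 pairs the ratio is above 0 with Neoribocic and below 0 with DMSO.

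The wider splicing machinery was read from 6 lists of 222 genes (223 rows, as MATR3 has 2), of which 220 rows were tested. Of these, 79 fell (35.9%) and 25 rose (11.4%), where 21.3% and 19.1% of all genes did, with a median of -0.34. The correction gave 86 lower and 16 higher, where 19.4% and 16.5% of all genes were. Scaled by library totals alone, the split was 61 lower and 35 higher. The count higher was 8 without Neoribocic replicate 1 and 10 without DMSO replicate 1 or DMSO replicate 2, and the count lower was 48 without Neoribocic replicate 1. The list of splice site recognition factors and RS-domain coactivators stood nearest to the SR proteins and hnRNPs, with 22 of 41 lower (53.7%), 2 higher and a median of -0.69. Its smallest p-values among falls were those of RBM25, a U1-associated RS protein (71.0 CPM with Neoribocic, 294 CPM with DMSO, means of 2), LUC7L3, a U1 snRNP factor, and PNN, a speckle and exon junction protein. Their log2 fold changes were -2.05, -1.82 and -1.74, and -1.24, -0.96 and -1.27 after the correction. The 2 that rose were PUF60, a U2AF-related factor (log2 fold change 1.02, adjusted p = 0.00680), and SCAF1 (0.74, adjusted p = 0.0135). Neither was called after the correction (PUF60 0.36 and SCAF1 0.27). PUF60 lost its call without Neoribocic replicate 1 (adjusted p = 0.0575), and SCAF1 without Neoribocic replicate 1 (0.0664) or DMSO replicate 1 (0.0612).

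In the list of other regulators of alternative splicing, 18 of 46 tested genes fell (39.1%) and 6 rose (13.0%), with a median of -0.53. Over all genes, 21.3% fell and 19.1% rose. SFPQ, a paraspeckle protein, averaged 95.9 ± 5.12 CPM with Neoribocic and 574 ± 110 CPM with DMSO (SD, n = 2 each), a log2 fold change of -2.58 ± 0.22 (edgeR adjusted p = 5.52e-04) and -2.40 corrected. MBNL1 and MBNL2, the muscleblind regulators, had log2 fold changes of -2.14 and -2.38, or -1.34 and -1.74 corrected. The third muscleblind gene, MBNL3, named after its values were seen, had 4.07 and 1.18 CPM with Neoribocic, against 22.7 and 19.8 CPM with DMSO. This gave a log2 fold change of -3.02 ± 0.58 (edgeR adjusted p = 0.0119), or -2.66 corrected, and its call was lost without DMSO replicate 1 (adjusted p = 0.0916) or DMSO replicate 2 (0.0777). Among rises were CIRBP, the cold-inducible RNA-binding protein (0.91, adjusted p = 0.00955), RALY, an hnRNP C relative (0.79, adjusted p = 0.0209), and ESRP1, an epithelial splicing regulator (0.83, adjusted p = 0.0406). The correction left CIRBP at 0.34 and uncalled, turned RALY to -0.0036, and raised ESRP1 to 1.29. All 3 calls depended on single libraries. CIRBP lost its call without Neoribocic replicate 1 (adjusted p = 0.0736) or DMSO replicate 1 (0.0534), and RALY without Neoribocic replicate 1 (0.158), DMSO replicate 1 (0.0716) or DMSO replicate 2 (0.0763). ESRP1 lost its call without Neoribocic replicate 1 (0.146), Neoribocic replicate 2 (0.147), DMSO replicate 1 (0.0987) or DMSO replicate 2 (0.0693).

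The kinases, phosphatases and importins that handle SR proteins apart from the CLK and SRPK genes had 7 of 28 lower (25.0%) and 4 higher (14.3%), near the shares of all genes (21.3% and 19.1%), with a median of -0.26. PRPF4B, a kinase of the spliceosome, had a log2 fold change of -2.16 ± 0.25 (edgeR adjusted p = 8.74e-04) and -1.56 corrected. HIPK3, a nuclear kinase, and CDK12, a kinase of RNA polymerase II, had log2 fold changes of -1.36 and -0.95, and -0.48 and -0.11 corrected, where CDK12 was not called. DYRK3, a kinase that dissolves speckles, had 42.2 and 47.1 CPM with Neoribocic, against 16.4 and 16.3 CPM with DMSO. Its log2 fold change was 1.45 ± 0.22 (adjusted p = 0.00194) and 1.46 corrected. CCNL2, a speckle cyclin, and TNPO2, an import receptor, rose as well, with log2 fold changes of 1.38 and 0.96, or 0.97 and 0.90 corrected.

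The snRNP and LSm proteins of the core spliceosome had 10 of 46 lower (21.7%) and 6 higher (13.0%), where 21.3% and 19.1% of all genes were, with a median of 0.24 that the correction turned to -0.15. SF3B1, the branch point factor of the U2 snRNP, had a log2 fold change of -1.75 ± 0.25 (edgeR adjusted p = 0.00161) and -0.99 corrected. SF3A3 and DDX23 had log2 fold changes of -1.27 and -1.29, while on the log2 scale LSM4 rose by 1.71 (adjusted p = 0.00131), CD2BP2 by 1.22 (adjusted p = 0.00520) and SNRPD2, an Sm ring protein, by 1.45 (adjusted p = 0.00899). SNRPD2 lost its call without DMSO replicate 2 (adjusted p = 0.0765) and after the correction (0.61). In the PRP19 complex, helicases and step factors, 14 of 38 fell (36.8%) and 4 rose, with a median of -0.36. The helicases DHX15 and DDX46 had log2 fold changes of -2.18 and -2.02, and AQR, an intron-binding helicase, -1.89. After the correction DHX15 was at -1.83, DDX46 at -1.53 and AQR at -0.90, all called lower. Among the rises of this list, XAB2 stood at 1.12 (adjusted p = 0.00312) and PPIE at 0.82 (adjusted p = 0.0280). After the correction XAB2 was at 0.53 and PPIE at 0.24. PPIE lost its call without Neoribocic replicate 1 (adjusted p = 0.203), DMSO replicate 1 (0.0837) or DMSO replicate 2 (0.106).

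The exon junction complex and nonsense-mediated decay factors degrade the unproductive transcripts of SR protein and hnRNP genes. Of the 21 tested, 8 were lower (38.1%) and 3 higher (14.3%), with a median of -0.34. Over all genes, 21.3% were lower and 19.1% higher. GSPT1, the release factor eRF3A, had 81.1 and 89.8 CPM with Neoribocic, against 195 and 183 CPM with DMSO, a log2 fold change of -1.15 ± 0.19 (edgeR adjusted p = 0.00267). UPF2 and UPF3B, which link the junction complex to UPF1, had log2 fold changes of -1.56 (adjusted p = 0.00397) and -1.15 (adjusted p = 0.00544). Corrected, GSPT1 was at -1.01, UPF2 at -0.86 and UPF3B at -0.90, all called lower. PYM1, which takes junction complexes apart, rose by 1.23 on the log2 scale (adjusted p = 0.00692), SMG5 by 0.75 (adjusted p = 0.0156) and UPF1, the central helicase, by 0.64 (adjusted p = 0.0231). After the correction PYM1 was at 0.56 (adjusted p = 0.0493) and SMG5 at 0.59 (adjusted p = 0.0338). UPF1 was at 0.36 and not called after the correction (adjusted p = 0.0759). SMG5 lost its call without Neoribocic replicate 1 (adjusted p = 0.0926) or DMSO replicate 2 (0.0729). UPF1 lost its call without Neoribocic replicate 1 (0.0929), Neoribocic replicate 2 (0.0766), DMSO replicate 1 (0.0781) or DMSO replicate 2 (0.0661). The counts are per gene, so whether productive or decay-targeted transcripts of any splicing regulator changed was not measured.

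**Figure D4:**
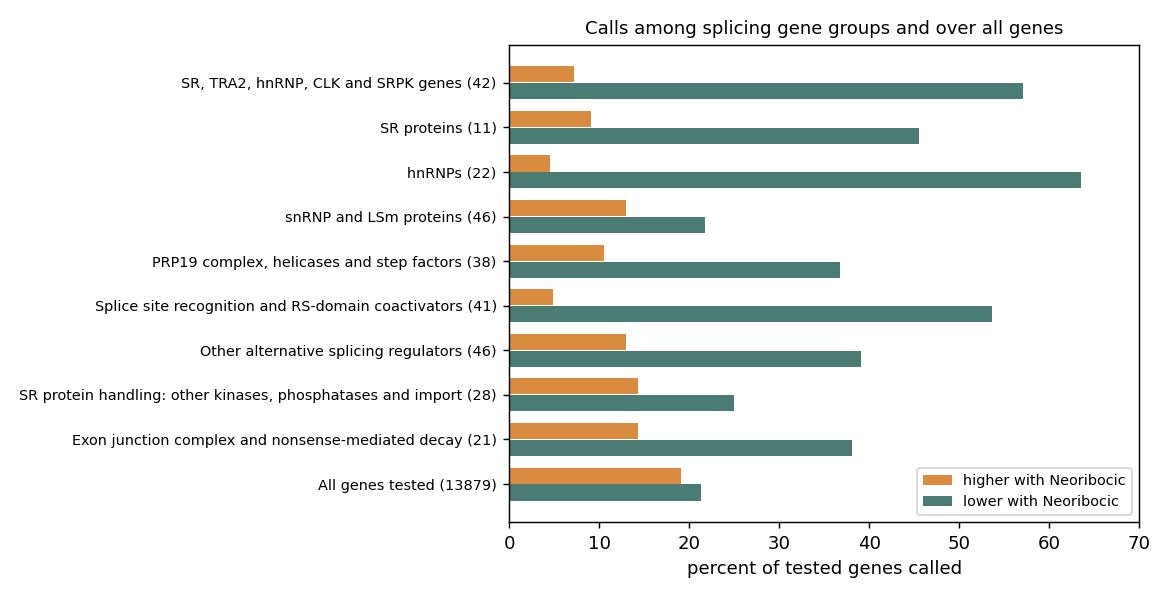
Percent of the tested genes called higher (orange) and lower (green) with Neoribocic in the 42 genes together, the SR proteins, the hnRNPs, the 6 lists and all genes (the small TRA2, CLK and SRPK families have no bars of their own), with the number tested in brackets and bars starting at 0. The hnRNPs (63.6% lower, 4.55% higher) and the list of splice site recognition factors and RS-domain coactivators (53.7% lower, 4.88% higher) have 2 of the 3 longest green bars drawn, and all genes tested stand at 21.3% lower and 19.1% higher.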

How the data were processed

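The authors deposited 1 table of raw counts, whole numbers by Ensembl gene ID with totals that differ between libraries. Libraries came from an mRNA kit, per the labels' protocols. Aligner, counter and strand setting are not stated. GRCm38 and mm10, mouse builds, are named in the submitters' processing notes, although the IDs are human. Of 20263 IDs, 20224 were matched to a symbol in GENCODE release 29, which also gave exon overlaps, and 1 transcript per gene for length and GC content. Among counts below 20, 62.3% to 65.4% were even, against 50.3% to 51.3% of counts of 20 to 200, a pattern that counting both mates of a pair would leave.

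Genes kept by filterByExpr were fitted with edgeR 4.0.16 (R 4.3.3): TMM scaling, trended dispersion, robust quasi-likelihood fit with the group as its only term, glmQLFTest, and Benjamini-Hochberg adjustment over all genes tested, threshold 0.05. Levels are TMM-scaled CPM, log2 fold changes are Neoribocic over DMSO, and errors are standard errors. The correction was a smooth surface (mgcv 1.9.3) of log2 CPM over transcript length and GC content, fitted per library, and entered the fit as offsets. The fit and the correction were checked on simulated data. Replicates correlated at 0.981 (Neoribocic) and 0.976 (DMSO) on log2 CPM. Scaled by library totals alone, 68.5% and 73.3% of genes differed between replicates by more than counting error, so no library was a copy. Those shares can include shifts in the composition of a library as well as the spread of single genes.

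The genes, the 6 lists and the alternatives were chosen with earlier results of these data known. Values in full are given for the tested CLK, SRPK and TRA2 genes, the 6 SR protein and 8 hnRNP genes with the smallest p, and genes whose call a single library decides; other hnRNP values were added after they were seen. Up to 3 genes per direction with the smallest p are named in each list. A gene that this rule names is not reported here. The alternatives were RLE and upper-quartile factors, library totals, other count filters, DESeq2 1.42.0, limma-voom (limma 3.58.1), a non-robust fit, a replicate block, leaving out each library, the correction, no mitochondrial genes and halved counts. Promoters and their motifs were read from RefSeq.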

Additional observations from a re-analysis of the deposited data

How the results depend on the processing

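RLE factors, a CPM filter, limma-voom, edgeR without the robust option, halved counts and leaving out mitochondrial genes kept all 27 calls among the 42 genes. DESeq2 and the absence of a count filter kept them too and added HNRNPUL1. Upper-quartile factors and library totals move the median of all genes by 0.12 and 0.17 on the log2 scale, and the median of the 42 genes to -0.57 and -0.52. The correction for length and GC content moved it to -0.45. Upper-quartile factors gave 5 of the 42 higher, losing 5 calls and adding CLK2 and SRPK3, and library totals gave 15 lower, losing 9 calls and adding SRPK3. Over all genes, upper-quartile factors gave 5861 calls and library totals 5317, against 5610 in the main fit. With 1 library left out, the 42 genes had 3 to 4 higher and 11 to 17 lower, and a median of -0.74 to -0.61. The other splicing genes then had 8 to 28 higher and 48 to 63 lower, and all genes 2468 to 4536 calls. The lowest counts came without Neoribocic replicate 1, and such fits assume that the lone library of a group varies as the other group does. The correction left 16 other splicing genes higher.

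Signs were followed for the 42 genes and the named genes of the lists, and HNRNPU and RALY were the called ones among them that turned. Under the correction the turned genes were SRSF6 (0.18), SRSF8 (0.35), HNRNPLL (0.0906), HNRNPU (0.13), SRPK2 (0.36) and RALY (-0.0036). Library totals turned SRSF4 (0.0839), SRSF5 (0.0085), SRSF8 (0.0472), HNRNPC (0.0231) and SRPK2 (0.0465), and upper-quartile factors SRSF4 (0.0383) and SRPK2 (0.0098). With 1 library left out, HNRNPC ranged over -0.2711 to 0.0317 and SRPK2 over -0.2304 to 0.0185, positive without DMSO replicate 1. The cause was not tested.

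Same-numbered libraries did not deviate together over all genes tested (correlation -0.05). What the numbers stand for is not recorded, and 1 correlation cannot show whether some genes share a batch. With the replicate number as a block, 25 of the 42 genes were lower, 4 higher, and 5594 of all genes were called; the other splicing genes had 75 lower and 25 higher. Of the 27 calls, 14 held with every library left out: SRSF2, SRSF3, SRSF9, HNRNPA0, HNRNPA1, HNRNPA2B1, HNRNPA3, HNRNPD, HNRNPDL, HNRNPH1, HNRNPH3, HNRNPM, HNRNPR and CLK3. The other 13 calls were lost without at least 1 library. How many calls over all genes held in this way was not counted, so the 14 and the 13 have no background share beside them. Depth limits SRPK3 most, with 5 to 65 counts.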
